A study of Homo sapiens with 10 samples.

Results

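Genes of the red cell membrane and of blood group antigens were followed in microvesicles, membrane-bound particles shed into the medium, and in the K562 cells that shed them, a line from a patient with chronic myeloid leukaemia that keeps erythroid features. The group was set as 8 genes (GYPB, GYPE, SLC4A1, ANK1, EPB41, EPB42, RHAG and ERMAP), and every probe set that the platform annotation lists under one of these symbols was taken. Such probe sets were found for 6 of the genes, 18 probe sets among the 54613 tested, or 6 genes among 19775. No probe set was listed under GYPB or GYPE in the annotation used here, and these glycophorin genes were not analysed here. The arrays held total RNA of 5 microvesicle preparations, shed by the parental K562 line, and of 5 preparations of the K562 cells themselves, with no treatment named for either. Each came from 5 independent experiments with Trizol extraction, and one line, with no second clone or donor, stands behind all 10 arrays. The labels do not say how the vesicles were collected or whether a vesicle and a cell array of one number shared a culture, so the p-values speak only of the spread among these samples, which may be technical. Values are log2 expression values made with RMA, a procedure that subtracts background, adjusts the arrays to one another and gives 1 value per probe set. The deposited distributions were not alike in the groups, since the SD over all probe sets of an array was 1.89 to 1.99 in microvesicles and 2.33 to 2.36 in cells.

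The red cell membrane is a lipid bilayer held up by a spectrin and actin skeleton. The anion exchanger SLC4A1 sits in the bilayer and is tied to spectrin by the ankyrin ANK1, with EPB42 bound to both, while EPB41 links spectrin and actin to the membrane at the skeleton's junctions. RHAG is a glycoprotein of the Rh complex, which carries the Rh antigens and associates with the ankyrin complex, and ERMAP is an immunoglobulin-like membrane protein that carries the Scianna blood group antigens.

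RHAG and ERMAP fell most among the 18 probe sets in microvesicles, and the stretches around their annotated transcription starts are shown so that their bases can be compared. Sequences are from RefSeq (GRCh38.p14), 250 bases before to 50 bases after the start, 5′ to 3′ on the strand of the gene. Capitals mark GATAA, the core bound by GATA factors, and CACCC, the core bound by erythroid KLF factors, each on either strand (TTATC and GGGTG on the other). The RHAG stretch lies at chr6:49636790-49637089 on the minus strand, and ERMAP has 2 entries on the plus strand, at chr1:42816872-42817171 and chr1:42825311-42825610.
RHAG: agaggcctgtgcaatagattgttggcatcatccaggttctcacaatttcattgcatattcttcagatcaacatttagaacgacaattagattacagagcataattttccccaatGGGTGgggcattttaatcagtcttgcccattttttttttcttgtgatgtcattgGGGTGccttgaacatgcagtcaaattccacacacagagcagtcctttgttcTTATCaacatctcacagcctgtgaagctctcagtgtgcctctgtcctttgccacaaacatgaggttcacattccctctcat
ERMAP, first entry: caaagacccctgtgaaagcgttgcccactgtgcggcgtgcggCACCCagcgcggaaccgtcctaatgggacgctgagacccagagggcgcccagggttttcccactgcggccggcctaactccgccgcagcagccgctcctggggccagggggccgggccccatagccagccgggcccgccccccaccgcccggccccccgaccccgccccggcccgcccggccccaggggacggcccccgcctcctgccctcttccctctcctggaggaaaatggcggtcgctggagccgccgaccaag
ERMAP, second entry: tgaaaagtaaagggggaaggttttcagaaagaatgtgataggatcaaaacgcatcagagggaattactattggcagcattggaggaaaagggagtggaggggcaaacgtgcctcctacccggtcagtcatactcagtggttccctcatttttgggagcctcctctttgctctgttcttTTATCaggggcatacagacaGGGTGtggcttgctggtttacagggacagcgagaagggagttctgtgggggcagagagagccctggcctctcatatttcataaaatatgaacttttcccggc
The RHAG stretch held 1 GATAA match, beginning at base -31 from the start, and 2 CACCC matches. The first ERMAP entry held 0 GATAA and 1 CACCC match, and the second held 1 of each, with no base shared between the motifs in any of them. Over all 35116 stretches of the same length in the table, 22.7% held GATAA and 59.9% held CACCC, so a match by itself is common. Entries were found for 6 of the 8 genes. The EPB42 entry held 2 GATAA and 2 CACCC matches, and each EPB41 entry held 0 of both. Every GYPB and GYPE entry held 1 GATAA match. These letters describe the windows and were not tested against the vesicle values.

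The arrays differed in ways that bear on every value below. Correlations over all probe sets, which are not independent replicates, were 0.911 to 0.944 among microvesicle arrays, 0.990 to 0.997 among cell arrays and 0.851 to 0.906 between the groups. The median SD of a probe set was 0.464 in microvesicles and 0.150 in cells. Array medians ran from 4.22 to 4.28 in microvesicles and from 4.08 to 4.12 in cells. As a sign of RNA integrity, the ACTB control at the 3' end exceeded that at the 5' end by 3.12 ± 0.34 in microvesicles and 2.39 ± 0.15 in cells (SD, n = 5 each, exact permutation p = 0.00794, 2-sided, the smallest that 5 against 5 allow). Its part in the results was not tested. All 7 erythroid markers were measured, and their mean per array was 7.68 to 9.01 in microvesicles and 8.76 to 9.17 in cells. For platelet markers (4 of 4 genes measured) that mean was 4.23 to 4.64 in microvesicles and 3.75 to 4.03 in cells, and for T cell markers (3 of 3) 5.49 to 6.22 in microvesicles and 5.73 to 6.56 in cells. For B cell markers (2 of 3) it was 4.39 to 5.23 in microvesicles and 3.80 to 4.25 in cells, and for monocyte markers (2 of 3) 3.79 to 4.55 in microvesicles and 4.66 to 5.83 in cells. Members of a list could go opposite ways, as LYZ changed by -2.65 and CD14 by 0.55, and CD3G by -1.25 and CD3E by 0.90 (limma adjusted p = 9.55e-06, 0.0445, 0.00176 and 0.000466). Their part in the results was not tested either.

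In microvesicles 11 of the 18 probe sets fell and 1 rose, with 6 not past an adjusted p of 0.05 in limma's moderated test with Benjamini-Hochberg adjustment over all 54613 probe sets. Over all probe sets 27.0% fell and 35.4% rose, 62.4% in all. A fall of at least 2-fold was called in 6 of the 18, against 18.0% of all. Groups did not overlap in 8 of the 18, all with the microvesicle arrays below the cell arrays, against 22.0% of all probe sets in that direction, 24.0% in the other and 45.9% in all. Changes are log2 differences, microvesicles minus cells, with the SE after ±. Their median was -0.56 over the 18 and 0.27 over all probe sets. The 18 are not 18 separate transcripts, since 7 read ANK1, 4 EPB41, 3 RHAG, 2 SLC4A1 and 1 each EPB42 and ERMAP.

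**Figure D1:**
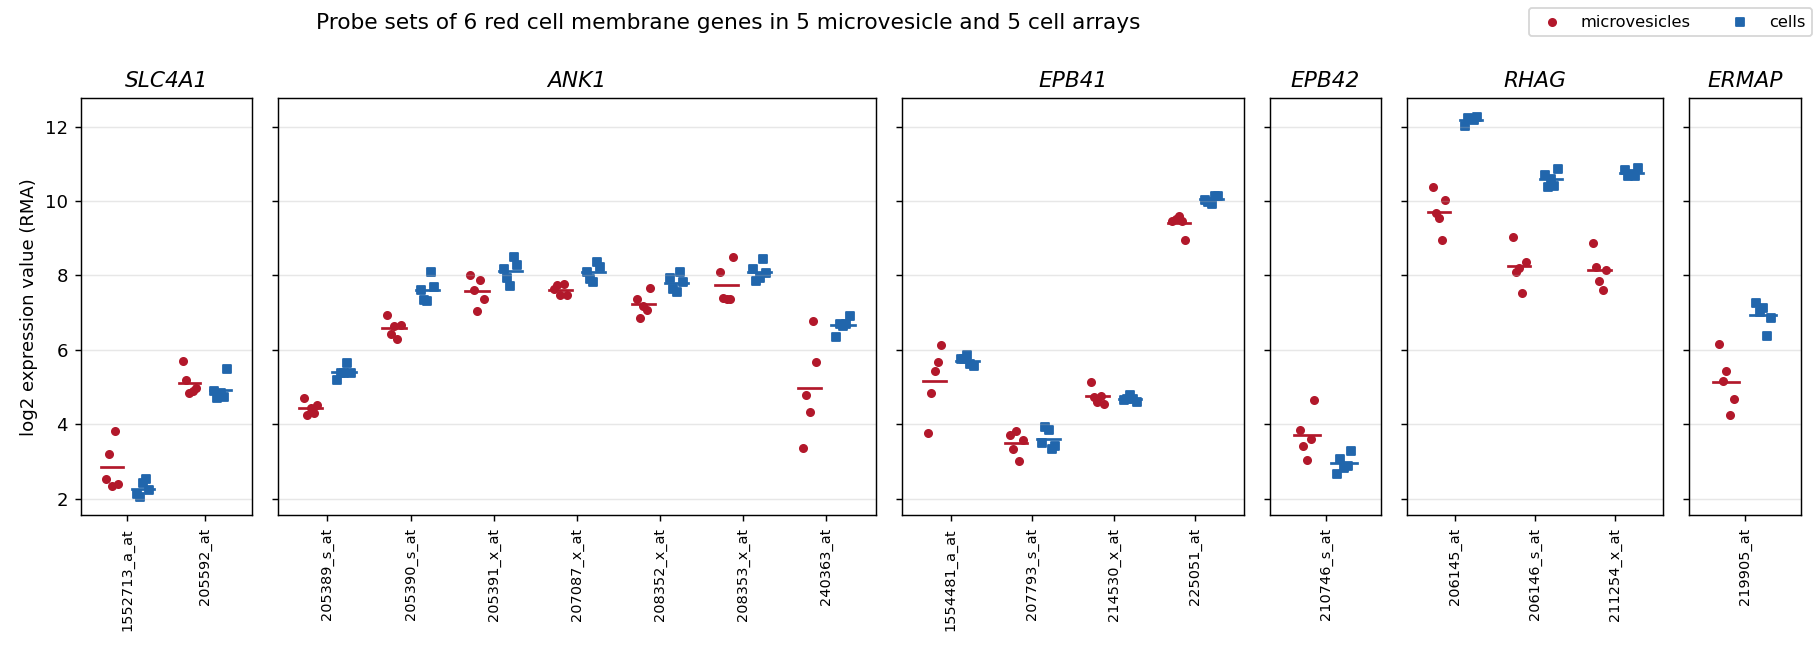
Log2 expression values (vertical axis) of the 18 probe sets in single arrays, grouped by gene, with microvesicles as red circles on the left of each pair and cells as blue squares on the right. Short lines are means of 5 arrays. The 3 RHAG probe sets and ERMAP lie wholly lower in microvesicles, with RHAG 206145_at at 8.94 to 10.37 in microvesicles and 12.01 to 12.26 in cells, while the SLC4A1 and EPB42 groups overlap.

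The change of a probe set also depended on how bright it was. Over all probe sets the median change was 0.59 for those with a mean of 2 to 3 over the 10 arrays, -1.01 for those of 7 to 8 and -0.45 for those of 10 to 11. Among the 22996 probe sets with the higher group mean at 5 or more, 55.9% fell. For this reason each change is also given after loess normalization by level, in which each array is fitted against the mean array. After that step 5 of the 18 probe sets fell (RHAG in all 3, ERMAP and ANK1 205389_s_at), against 21.6% of all probe sets, and the median over the 18 was -0.11, against 0.03 over all.

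RHAG, the glycoprotein that the Rh proteins need to reach the cell surface, showed the largest fall of the group, in all 3 of its probe sets. Probe set 206145_at read 10.37, 9.68, 9.54, 8.94 and 10.02 in microvesicle arrays 1 to 5, against 12.01, 12.23, 12.20, 12.17 and 12.26 in cell arrays 1 to 5. The highest microvesicle array lay well below the lowest cell array, and the cell arrays lay close together. The mean was 9.71 ± 0.54 in microvesicles and 12.18 ± 0.096 in cells (SD, n = 5 each), a change of -2.47 ± 0.23 or 5.52-fold lower (limma adjusted p = 1.93e-06). Of the 650 probe sets with a mean of 10 to 11 over the arrays, 3 changed by as much downwards, this one included.

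The other RHAG probe sets gave the same picture. Probe set 206146_s_at read 9.04, 8.10, 8.19, 7.52 and 8.37 in microvesicles, against 10.71, 10.37, 10.59, 10.41 and 10.86 in cells. Probe set 211254_x_at read 8.88, 8.23, 7.86, 7.62 and 8.14 in microvesicles, against 10.84, 10.67, 10.73, 10.68 and 10.89 in cells. Neither had any overlap between the groups. They changed by -2.34 ± 0.24 (5.08-fold lower, limma adjusted p = 4.22e-06) and -2.61 ± 0.21 (6.12-fold lower, limma adjusted p = 6.71e-07). Of the 1187 probe sets with a mean of 9 to 10, 24 and 15 changed downwards by as much as these, themselves included. After loess the changes of 206145_at, 206146_s_at and 211254_x_at were -2.06, -1.72 and -2.00, all past the threshold (limma adjusted p = 2.86e-06, 1.86e-05 and 2.34e-06). These values are relative to the other probe sets, since RMA adjusts the arrays to one another. RNA was pooled over many vesicles, and no amount per vesicle was measured. A smaller share of RHAG RNA per vesicle, fewer vesicles that carry it, and differences in RNA integrity or scaling cannot be told apart.

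ERMAP, with 1 probe set (219905_at), also fell. It read 6.15, 5.15, 5.43, 4.24 and 4.69 in microvesicles, against 7.26, 7.02, 7.12, 6.38 and 6.86 in cells. The groups did not overlap, though the highest microvesicle array (6.15) came near the lowest cell array (6.38). The mean was 5.13 ± 0.73 in microvesicles and 6.93 ± 0.34 in cells (SD, n = 5 each), a change of -1.79 ± 0.30 or 3.46-fold lower (limma adjusted p = 0.000269). It remained past the threshold after loess, at -1.14 (limma adjusted p = 0.00588). Falls of this size were common at its level, since 1011 of 4467 probe sets with a mean of 6 to 7 changed downwards by as much.

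RHAG and ERMAP shared their extreme arrays in microvesicles. All 3 RHAG probe sets and ERMAP were highest in microvesicle array 1 and lowest in microvesicle array 4. These extremes were not particular to the 2 genes, since ANK1 205390_s_at had them too, at 6.95 and 6.30. ANK1 240363_at had the reverse, at 3.35 in array 1 and 6.79 in array 4. The mean of the RHAG probe sets stood 0.73 above its microvesicle mean in array 1 and at -0.67 in array 4, and ERMAP stood 1.02 above and at -0.89. In array 2 both stood near their means, at -0.03 for RHAG and 0.02 for ERMAP. In arrays 3 and 5 they lay on opposite sides of their means, at -0.17 and 0.14 for RHAG and at 0.30 and -0.45 for ERMAP. The median over all 9827 probe sets that fell at least 2-fold was also highest in array 1 (0.25) and lowest in array 4 (-0.14), with arrays 2, 3 and 5 at -0.10, 0.14 and -0.07. Of these probe sets, 14.3% were both highest in array 1 and lowest in array 4.

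**Figure D2:**
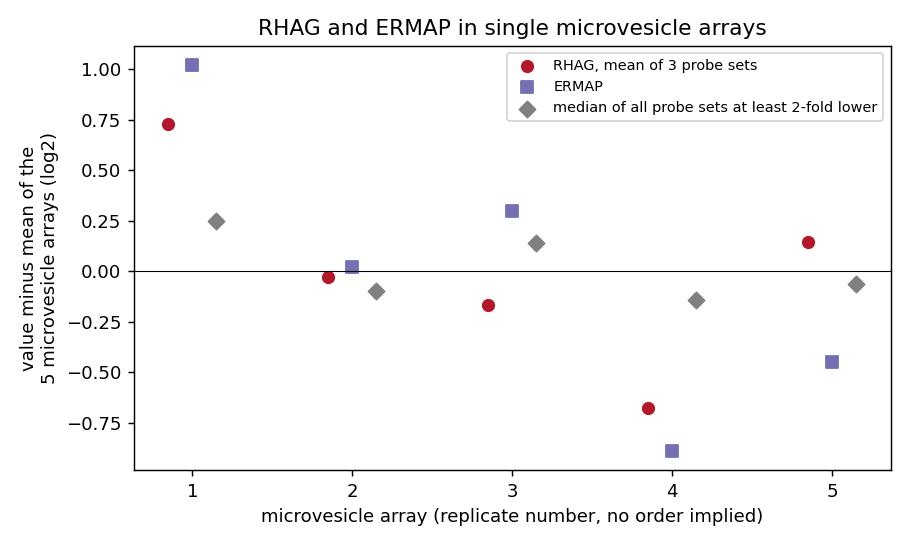
Deviation of each microvesicle array (horizontal axis, replicate numbers without order) from the mean of the 5 microvesicle arrays on the log2 scale (vertical axis), for the mean of the 3 RHAG probe sets (red circles), ERMAP (purple squares) and the median of all 9827 probe sets at least 2-fold lower in microvesicles (grey diamonds). Array 1 is highest and array 4 lowest in all 3.

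SLC4A1, the anion exchanger and most abundant protein of the mature red cell membrane, did not pass the test in either probe set. Probe set 205592_at read 5.70, 5.19, 4.83, 4.90 and 4.98 in microvesicles, against 4.90, 4.71, 4.84, 4.74 and 5.49 in cells. The ranges overlap, and the change was 0.19 ± 0.21 (limma adjusted p = 0.446). Without cell array 5, the highest of the cells, the change was 0.32 and did not pass (limma adjusted p = 0.193). After loess, with all arrays, it was 0.27 (limma adjusted p = 0.351). Probe set 1552713_a_at read 2.53, 3.21, 2.35, 3.81 and 2.39 in microvesicles, against 2.14, 2.06, 2.42, 2.52 and 2.24 in cells, with a change of 0.58 ± 0.26 (limma adjusted p = 0.067). It passed when microvesicle array 3 was left out (0.71, limma adjusted p = 0.0371) or array 5 (0.70, limma adjusted p = 0.0372). Without microvesicle array 4, the highest, the change was 0.34 (limma adjusted p = 0.151). The median change of probe sets with a mean of 2 to 3 was 0.59. After loess, with all arrays, the change of 1552713_a_at was 0.02 (limma adjusted p = 0.956). Both of its group means lie under the array medians, and with no detection call it is not known whether they exceed background.

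ANK1, the ankyrin that joins the anion exchanger to spectrin, had 6 of its 7 probe sets fall in microvesicles. The estimated falls differed in size, but no ANK1 probe set passed the departure test described below with all arrays. Probe set 205389_s_at read 4.70, 4.26, 4.43, 4.30 and 4.51 in microvesicles, against 5.19, 5.37, 5.39, 5.66 and 5.39 in cells. Its groups did not overlap, and the change was -0.96 ± 0.16 (1.94-fold lower, limma adjusted p = 0.000241), with -0.93 after loess (limma adjusted p = 0.00047). At its level, a mean of 4 to 5, 1968 of 10688 probe sets changed downwards by as much. Probe set 205390_s_at read 6.95, 6.42, 6.64, 6.30 and 6.67 in microvesicles, against 7.62, 7.34, 7.31, 8.09 and 7.69 in cells. It too had no overlap and changed by -1.02 ± 0.19 (limma adjusted p = 0.00064), but stood at -0.15 after loess (limma adjusted p = 0.567). This fall is near the median of -1.01 for probe sets with a mean of 7 to 8.

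Probe set 240363_at of ANK1 varied most among microvesicles, at 3.35, 4.78, 4.34, 6.79 and 5.69, against 6.35, 6.71, 6.65, 6.70 and 6.90 in cells. Array 4 reached the level of the cells while array 1 lay far below. The change was -1.67 ± 0.47 (limma adjusted p = 0.00768) and did not pass after loess (-1.12, limma adjusted p = 0.0801). Array 4 was the lowest for RHAG and the highest here.

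The 4 ANK1 probe sets whose name ends in _x_at, a platform label for probes that may also bind other transcripts, moved least. Their microvesicle means ran from 7.23 to 7.75 and their cell means from 7.81 to 8.12. Probe sets 205391_x_at, 207087_x_at and 208352_x_at changed by -0.54 ± 0.22, -0.47 ± 0.16 and -0.58 ± 0.19 (limma adjusted p = 0.0445, 0.0241 and 0.0165), and 208353_x_at, at -0.35 ± 0.24, did not pass (limma adjusted p = 0.204). The last passed at -0.54 (limma adjusted p = 0.0315) without microvesicle array 5. After loess the 4 stood between 0.28 and 0.46, above 0 and none past the threshold (the smallest limma adjusted p was 0.127), so the direction of these ANK1 probe sets depends on the scaling. All 4 lay above the median change of -1.01 for probe sets with a mean of 7 to 8. Which transcripts these probe sets read was not tested.

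**Figure D3:**
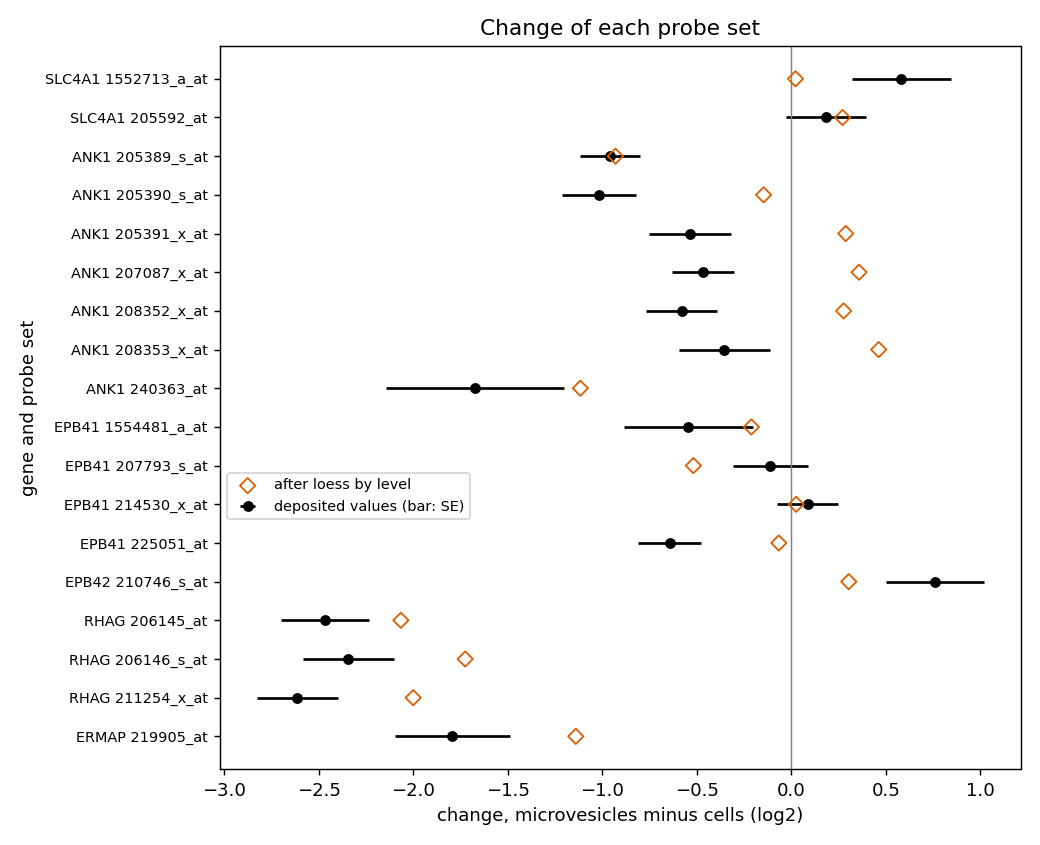
Change of each probe set, microvesicles minus cells on the log2 scale (horizontal axis), with the SE as a bar for the deposited values (black circles) and the value after loess normalization by level (open orange diamonds). RHAG stays between -1.72 and -2.06 after loess, while the 4 ANK1 probe sets ending in _x_at pass from below 0 to above it.

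EPB41, which fastens spectrin and actin to the membrane and is expressed in many tissues, fell in 1 of 4 probe sets. Probe set 225051_at, the brightest, read 9.47, 9.51, 9.61, 9.46 and 8.95 in microvesicles, against 10.04, 9.96, 9.92, 10.14 and 10.14 in cells. The groups did not overlap, and the change was -0.64 ± 0.17 (1.56-fold lower, limma adjusted p = 0.00498). This fall is near the median of -0.55 for probe sets with a mean of 9 to 10, and after loess it was -0.07 (limma adjusted p = 0.792). Probe sets 1554481_a_at, 207793_s_at and 214530_x_at changed by -0.54 ± 0.34, -0.11 ± 0.20 and 0.09 ± 0.16, and none of them passed. The first of these ranged from 3.76 to 6.13 in microvesicles and from 5.56 to 5.87 in cells, and passed at -0.78 (limma adjusted p = 0.0449) without microvesicle array 5. Without microvesicle array 1 its change was -0.19 (limma adjusted p = 0.466).

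EPB42, which binds the anion exchanger and ankyrin, was the 1 rise among the 18 probe sets. Its probe set 210746_s_at read 3.84, 3.41, 3.04, 3.60 and 4.67 in microvesicles, against 2.68, 3.08, 2.84, 2.88 and 3.29 in cells. The groups overlapped, and the change was 0.76 ± 0.26 (1.69-fold higher, limma adjusted p = 0.0214). It lies above the median change of 0.48 for probe sets with a mean of 3 to 4, of which 3544 of 12254 changed upwards by as much. After loess the change was 0.30 (limma adjusted p = 0.37). The call was lost without cell array 1 (0.69, limma adjusted p = 0.0543). Both group means are under the array medians, so whether the transcript was detected is not known.

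**Figure D4:**
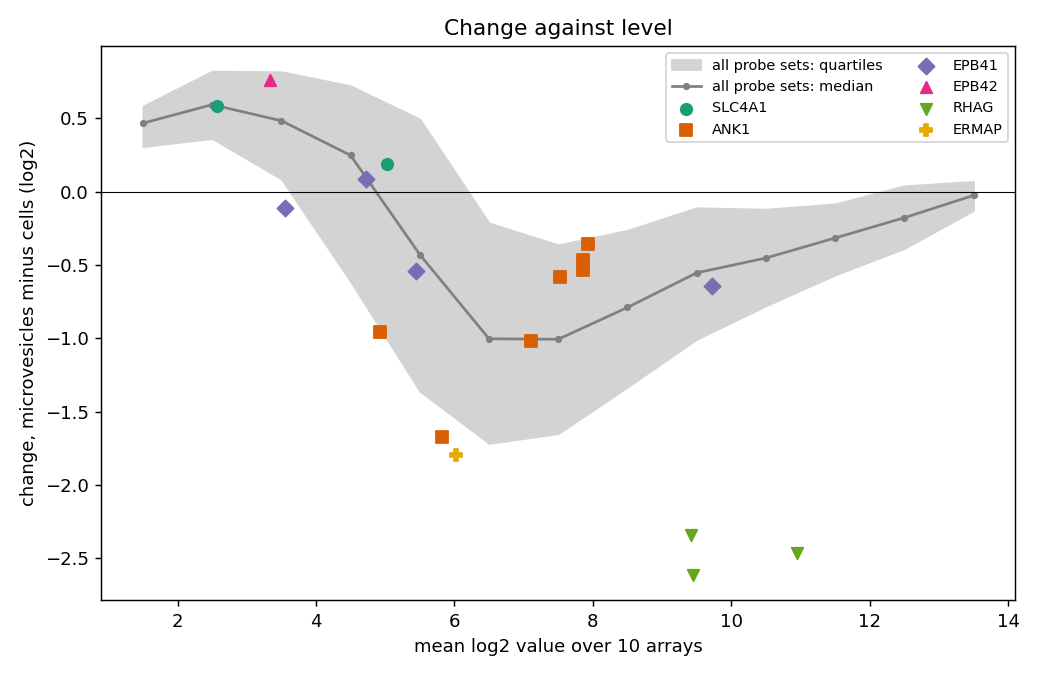
Change, microvesicles minus cells on the log2 scale (vertical axis), against the mean log2 value over 10 arrays (horizontal axis) for the 18 probe sets, coloured by gene, over the median (grey line) and quartiles (grey band) of all probe sets per unit of level. The 3 RHAG probe sets, between -2.34 and -2.61, lie far below the band, whereas EPB41 225051_at (-0.64) and EPB42 (0.76) lie within it.

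Whether probe sets of 1 gene changed by different amounts was tested by taking each array's value minus the mean of the gene's other probe sets. Of 16 such tests over RHAG, ANK1, EPB41 and SLC4A1, 0 passed after adjustment and 3 had an unadjusted exact permutation p under 0.05. The tests within a gene depend on one another, and those of SLC4A1, with 2 probe sets, are the same test with opposite signs. With 16 tests the smallest adjusted p for 1 departing probe set alone is 0.127, so the test could pass only if at least 3 departed together. The 3 were EPB41 214530_x_at (a difference of 0.52, exact permutation p = 0.00794, adjusted p = 0.127), EPB41 225051_at (-0.45, exact permutation p = 0.0476) and ANK1 207087_x_at (0.39, exact permutation p = 0.0476). For RHAG the differences were 0.01, 0.20 and -0.21 (exact permutation p = 0.897, 0.103 and 0.0952). Without microvesicle array 4, 3 probe sets passed, namely ANK1 208353_x_at (0.68), ANK1 240363_at (-1.49) and EPB41 214530_x_at (0.52), each at an adjusted p of 0.0423 from the exact permutation test. After loess 0 of the 16 passed after adjustment and 5 had an unadjusted exact permutation p under 0.05, with only ANK1 207087_x_at among the 3 above. These were ANK1 205389_s_at (-0.95), ANK1 207087_x_at (0.55), ANK1 208352_x_at (0.46), ANK1 208353_x_at (0.67) and RHAG 206146_s_at (0.31), while EPB41 214530_x_at stood at 0.29 (exact permutation p = 0.270) and EPB41 225051_at at 0.17 (exact permutation p = 0.452).

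With 1 probe set per gene, the one with the highest mean, RHAG, ERMAP and EPB41 fell, EPB42 rose and SLC4A1 and ANK1 did not pass. That is 3 of 6 genes lower and 1 higher, against 31.2% lower and 35.5% higher among all 19775 genes. After loess 2 of the 6 were lower and 0 higher, against 18.8% and 26.0% of all genes. ANK1 is represented here by 208353_x_at, at -0.35, while its probe sets 205389_s_at, 205390_s_at and 240363_at had larger estimated falls. Their departures from the gene's other probe sets did not pass the test above with all arrays.

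Other genes of the red cell membrane and of blood groups were read from their brightest probe sets. Of these genes 38 were analysed here, and 16 fell and 13 rose in microvesicles, against 31.2% and 35.5% of all genes. Their median change was 0.05, against 0.20 over all genes. After loess 10 fell and 15 rose, against 18.8% and 26.0% of all genes. Membrane skeleton genes had 5 falls and 1 rise of 8 (median -0.76), and channels and transporters 3 falls and 1 rise of 5 (median -1.32). Blood group carriers and the enzymes that make blood group antigens had 8 falls and 11 rises of 25 (median 0.35). Channels and transporters that carry blood group antigens, such as AQP3, were counted among these 25. After loess the skeleton genes had 2 falls and 2 rises of 8 (median 0.01). Channels and transporters then had 2 falls and 1 rise of 5 (median -0.60). Blood group carriers and antigen enzymes had 6 falls and 12 rises of 25 (median 0.17). The count of falls among the 8 skeleton genes thus depends on the scaling.

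RHD, the Rh antigen protein that assembles with RHAG, fell in all 3 of its probe sets, by -2.65 ± 0.17 in 210429_at, -1.87 ± 0.22 in 210586_x_at and -1.14 ± 0.28 in 210430_x_at (limma adjusted p = 1.07e-07, 1.13e-05 and 0.00373 over all probe sets). The last stood at -0.27 after loess (limma adjusted p = 0.408). RHD is nearly identical to RHCE, so the signal of these probe sets cannot be split with certainty between the genes. The Kell blood group partners went opposite ways. XK averaged 7.26 in microvesicles and 9.17 in cells, a change of -1.91 ± 0.22, and KEL averaged 5.82 in microvesicles and 4.96 in cells, a change of 0.86 ± 0.21 (limma adjusted p = 1.25e-05 and 0.00338). Both kept their direction and passed after loess, at -1.13 and 1.17. Spectrin beta (SPTB) did not pass in the probe set used here, 208416_s_at (0.32 ± 0.16), and rose in 214145_s_at (0.85 ± 0.22, limma adjusted p = 0.00536 over all probe sets). After loess the change of 208416_s_at was 1.02 and passed (limma adjusted p = 0.000177).

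The largest falls of this list were those of the water and glycerol channel AQP3, the membrane scaffold STOM and the adducin gene ADD3. AQP3 averaged 6.24 in microvesicles and 9.15 in cells, a change of -2.91 ± 0.34 that rests on 39248_at, as its other probe sets changed by -0.31 and -0.44 and did not pass. STOM changed by -2.67 ± 0.24 and -2.32 ± 0.21 in its bright probe sets and by 0.05 ± 0.33 in 201062_at, which averaged 2.52 in microvesicles and 2.48 in cells. ADD3 fell in all 4 of its probe sets, between -1.70 and -2.32. The 1 rise bright enough to be named under the rule for named genes was that of SMIM1, the Vel blood group gene (0.67 ± 0.17, limma adjusted p = 0.00451), with 6.89 in microvesicles and 6.22 in cells and 1.49 after loess.

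**Figure D5:**
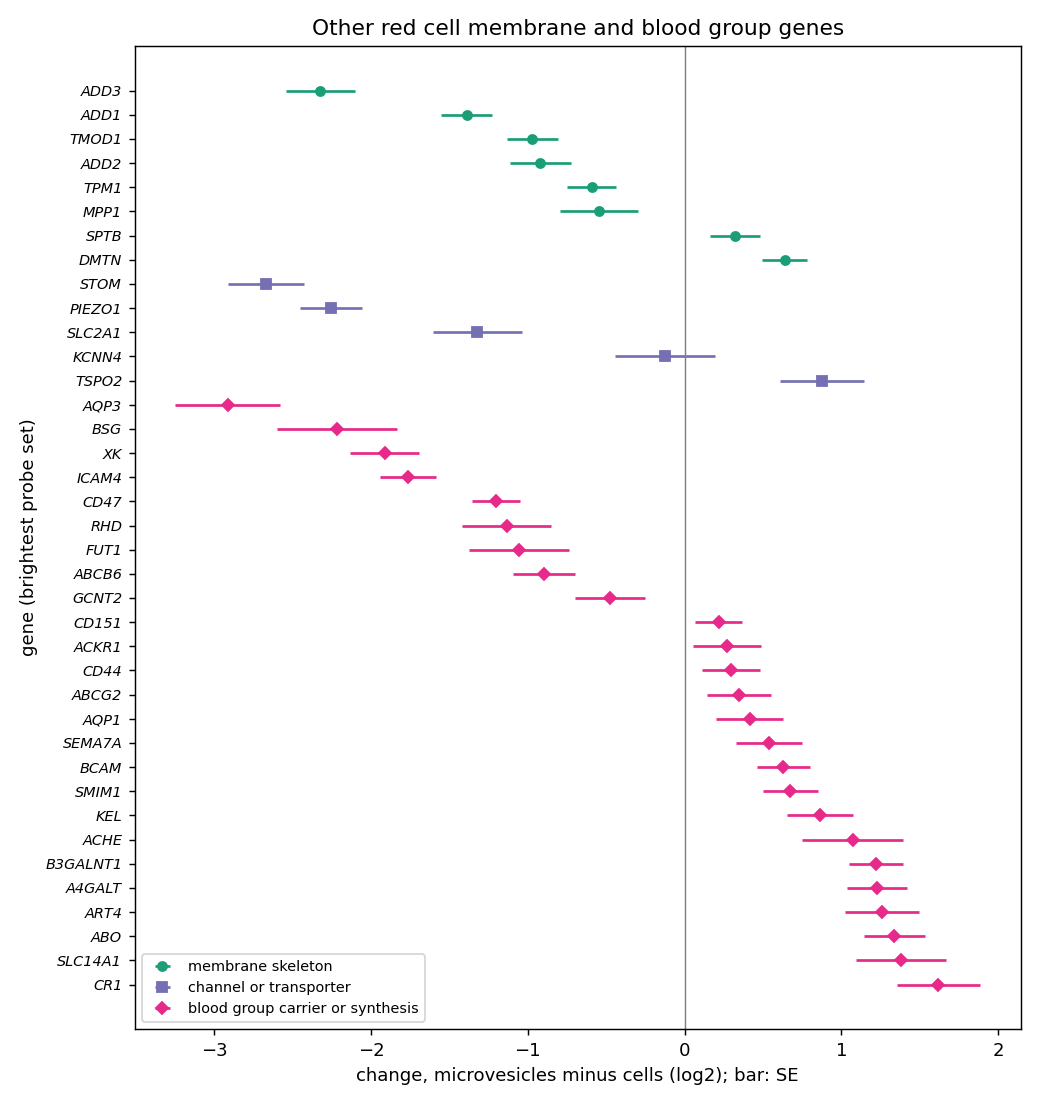
Change of 38 other red cell membrane and blood group genes, microvesicles minus cells on the log2 scale (horizontal axis), each read from its brightest probe set, with the SE as a bar and the symbol and colour giving the role. Changes run from -2.91 (AQP3) to 1.62 (CR1), and the skeleton genes have a median of -0.76 here and 0.01 after loess normalization by level.

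The probe sets most like RHAG 206145_at over the 10 arrays, after each probe set's own mean was subtracted, read TM9SF2, TRMT11, SELENOI, OGA and IDE. Their root mean square differences from it were 0.127, 0.138, 0.150, 0.163 and 0.176 on the log2 scale, over 10 arrays. RHAG's own other probe sets came to 0.185 and 0.184, so these 5 probe sets of other genes lay nearer to it by this measure. The 5 changed by -2.27 to -2.49 in microvesicles, as the measure requires.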

How the data were processed

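RNA of 5 microvesicle and 5 cell preparations was labelled as biotinylated cRNA for Affymetrix arrays, per the labels' protocols. The deposited values are log2 expression per probe set, made by the authors with RMA, per the submitters' processing notes; the RMA version is not given in the sources used here. They carry no detection call, and the number of arrays limits the precision. The 17 control probe sets were left out, and 54613 were tested. Probe sets were named by the platform annotation, with 41037 of 41091 that list 1 gene updated through the gene number. Groups were compared with limma 3.58.1 in R 4.3.3 (lmFit, eBayes, 1 mean per group, 2-sided), adjusted by Benjamini-Hochberg over all probe sets or, with the brightest probe set per gene, over 19775 genes, at 0.05. Loess by level used 1 pass with a span of 0.3. The fit was tested on simulated data. Members, lists and tests were chosen with earlier results of these data known. The text names every probe set of the 8 genes, SPTB, KEL, XK and RHD whatever their values, up to 3 largest rises and 3 largest falls of the wider list with a group mean of at least 6, and the 5 nearest genes to the brightest probe set. Alternatives covered the replicate block, scaling, a dim filter, the variance model, array weights, a rank sum test and leaving out each array.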

Additional observations from a re-analysis of the deposited data

Results flagged for a closer look

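Among 54 groups of 5 arrays checked for a sample far from the others, 3 were flagged, and chance flags about 1 in 20. SLC4A1 205592_at was highest in cell array 5, at 5.49, with the next cell array at 4.90. EPB41 225051_at was lowest in microvesicle array 5, at 8.95, with the next at 9.46, and its fall passed without that array too. SPTB 208416_s_at was lowest in microvesicle array 4, at 5.91, with the next at 6.32.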

How the results depend on the processing

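The falls of RHAG (3 probe sets), ERMAP and ANK1 205389_s_at passed under all 18 alternatives, with changes of -2.80 to -1.72 for RHAG, -2.05 to -1.14 for ERMAP and -1.12 to -0.87 for ANK1 205389_s_at. The count of probe sets that fell, 11, was 5 after loess by level and 5 after a second quantile normalization. The count that rose, 1, was 2 with the replicate block and 0 with median centring, quantile normalization, loess, the filter at 5 or the exact rank sum test, and the member genes that rose were also 0 under these last 5. At an unadjusted p under 0.05 the probe sets that rose were then 1, 1, 0, 0 and 1 in that order (limma, and the rank sum test for the last); the filter removed EPB42 itself. Leaving out single arrays gave 0 to 2 probe sets and 0 to 1 genes that rose, and 0 to 3 probe sets that departed from the rest of their gene. Of the 38 other genes, 10 fell after loess and 10 after quantile normalization in place of 16, and 8 rose with the filter in place of 13, where fewer genes were tested.

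ANK1 205391_x_at, 207087_x_at, 208352_x_at and 208353_x_at turned to 0.34, 0.42, 0.34 and 0.50 after quantile normalization and to 0.29, 0.36, 0.28 and 0.46 after loess; the cause was not tested. EPB41 214530_x_at turned to -0.072 with median centring and ran from -0.0096 (without microvesicle array 1) to 0.14 over arrays left out, and EPB41 207793_s_at from -0.19 to 0.0081 (without microvesicle array 4). ANK1 205391_x_at passed in 3 of the 10 fits that leave out an array and 207087_x_at in 7. The ACTB 3' minus 5' difference of 0.73 fell to 0.33 after quantile normalization and 0.34 after loess (exact permutation p = 0.0556 and 0.0635), and ran from 0.60 to 0.83 over arrays left out. Same-numbered arrays correlated at -0.025 to 0.11 in their deviations from group means, over 0.1 for 1 of 5 numbers, and 3 of 5 microvesicle and 4 of 5 cell arrays correlated best with their own number. Since not every number is over 0.1 and the labels do not say, the numbers were not taken to pair the samples, and the best matches are a hint from the data. With the replicate block, ANK1 207087_x_at did not pass (limma adjusted p = 0.0502) and SLC4A1 1552713_a_at did (limma adjusted p = 0.0485). Dim values without a detection call limit what EPB42 and SLC4A1 can show.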
